A study of Mus musculus with 54 samples.

Results

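The 41 genes described here encode the machinery that takes cargo into cells through clathrin-coated pits and sorts it in endosomes. They were chosen as a list by gene name and role: the clathrin chains, the AP-2 adaptor, coat accessory and cargo adaptor proteins, membrane-shaping, scission and uncoating factors, endosomal Rab GTPases with their effector Eea1, retromer and sorting nexins, the endosomal sorting complexes ESCRT-0 and ESCRT-I, caveolin-1 and the beta-arrestins. For 40 of them the arrays held a probe set that is annotated with a single gene symbol, out of 19920 genes with such a probe set. Of several probe sets for a gene, the one of highest average signal across the 27 arrays stood for it. Picalm was not analysed here.

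The genes were followed in Ba/F3-gp130 cells, a mouse pro-B cell line with the interleukin-6 family signalling chain gp130, which needs a cytokine to grow. Hyper-IL-6 is a designer cytokine in which interleukin-6 is joined to its soluble receptor. Affymetrix arrays were run on untransfected (parental) cells and on 3 lines with a Cargo Internalization Receptor construct each, named CIR-1, CIR-2 and CIR-3. Every line was measured without stimulation and 1 h after addition of 50 µl/ml GFP-PFC emulsion. Parental cells were also measured 1 h after 100 ng/ml Hyper-IL-6. All cells, controls included, had first been washed 4 times in PBS and kept without serum for 3 h. That made 9 groups of 3 arrays, 27 in all. The labels' stated purpose was to learn what the constructs do to the cells as a whole. The labels name no promoter for the constructs, do not say whether a line is a clone or a pool, and describe no group given a vehicle alone. Whether arrays of 1 group stem from separate cultures is not stated, so p-values measure the spread between these arrays, which may be technical. Arrays of RNA from whole cultures cannot tell a change in the share of cells that express a gene from a change in RNA per cell.

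In clathrin-mediated uptake, the AP-2 adaptor and accessory proteins gather cargo receptors at the plasma membrane and recruit clathrin triskelia, which are built of heavy and light chains. Dynamin cuts the neck of the coated pit, synaptojanin helps to strip the coat, and the vesicle fuses with early endosomes under the control of Rab5 and its tether Eea1. From there, Rab4 and Rab11 direct recycling, retromer returns receptors to the Golgi apparatus or the surface, ESCRT proteins sort ubiquitinated cargo inwards, and Rab7 marks the late endosome. Beta-arrestins link many activated surface receptors to clathrin and AP-2. Cytokine receptors of blood cells, gp130 among them, are taken up by this route.

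Values are log2 signals, and values of a group are listed in the order of the array numbers in the labels (1, 3 and 5 for unstimulated arrays, 2, 4 and 6 for stimulated ones). Array medians ran from 7.521 to 7.646. A mean below 6.218, the lowest of the arrays' lower quartiles, was taken as not shown to lie above background. Of 14 measured pro-B cell markers, the pan-leukocyte phosphatase Ptprc (mean 12.30) and the B cell receptor chains Cd79a (9.76) and Cd79b (10.09) were clearly measured, while Ebf1, Dntt, Rag2 and Il7r were not shown to lie above background. The erythroid factor Gata1 had a mean of 10.87. Arrays numbered 1 and 2 stood apart from the others for many genes, as described with the members they touch.

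The RefSeq promoter windows (GRCm38.p6, from 250 bases before to 50 after the start) of the dynamin pair are shown because Dnm1 differed most between the lines and its paralog Dnm2 did not pass the test in any comparison without a block. That of Dnm1 is chr2:32353280-32353579 on the minus strand, and that of Dnm2 is chr9:21424658-21424957 on the plus strand. Capitals mark matches, on either strand, to the GC box GGGCGG, the CCAAT box CCAAT, the TATA box TATAAA and the STAT-type element TTCNNNGAA.
Dnm1: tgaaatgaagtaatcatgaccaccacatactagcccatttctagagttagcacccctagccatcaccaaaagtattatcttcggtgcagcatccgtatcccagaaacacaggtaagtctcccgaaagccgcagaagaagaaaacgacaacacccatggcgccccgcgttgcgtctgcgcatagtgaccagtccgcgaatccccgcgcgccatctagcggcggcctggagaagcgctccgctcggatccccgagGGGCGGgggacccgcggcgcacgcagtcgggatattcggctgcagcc
Dnm2: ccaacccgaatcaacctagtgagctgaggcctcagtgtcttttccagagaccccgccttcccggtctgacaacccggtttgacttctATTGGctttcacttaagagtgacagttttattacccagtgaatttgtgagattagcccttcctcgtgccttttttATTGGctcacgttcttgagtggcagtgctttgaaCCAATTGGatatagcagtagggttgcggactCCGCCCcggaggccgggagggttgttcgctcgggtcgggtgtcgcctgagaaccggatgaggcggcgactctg
The Dnm1 window had 1 GC box, 28 CpG dinucleotides and 59.0% G and C. The Dnm2 window had 1 GC box, 4 CCAAT matches, some overlapping, 17 CpG dinucleotides and 54.0% G and C. Neither window held TATAAA or TTCNNNGAA. Among 32851 promoter windows of the same table, 35.7% held the GC box, 37.4% CCAAT, 13.6% TATAAA and 8.3% TTCNNNGAA, and the median window had 52.7% G and C and 7 CpG. Windows were found for 34 members. These matches describe letters only.

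RNA signals of most members lay above the background bound, and their group means varied about as little as those of all genes. The mean signal of 36 of 40 members lay above the median of all genes, although signals of different probe sets do not rank RNA amounts. Cav1, which encodes the main coat protein of caveolae, was the only member below the background bound (mean 6.187). The median SD within groups was 0.099 for the members and 0.115 for all genes. The median distance between the lowest and the highest of the 9 group means was 0.172 for the members and 0.196 for all genes. Dnm1 was the only member whose group means spanned more than 1 (1.004), as those of 1.05% of all genes did.

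**Figure D1:**
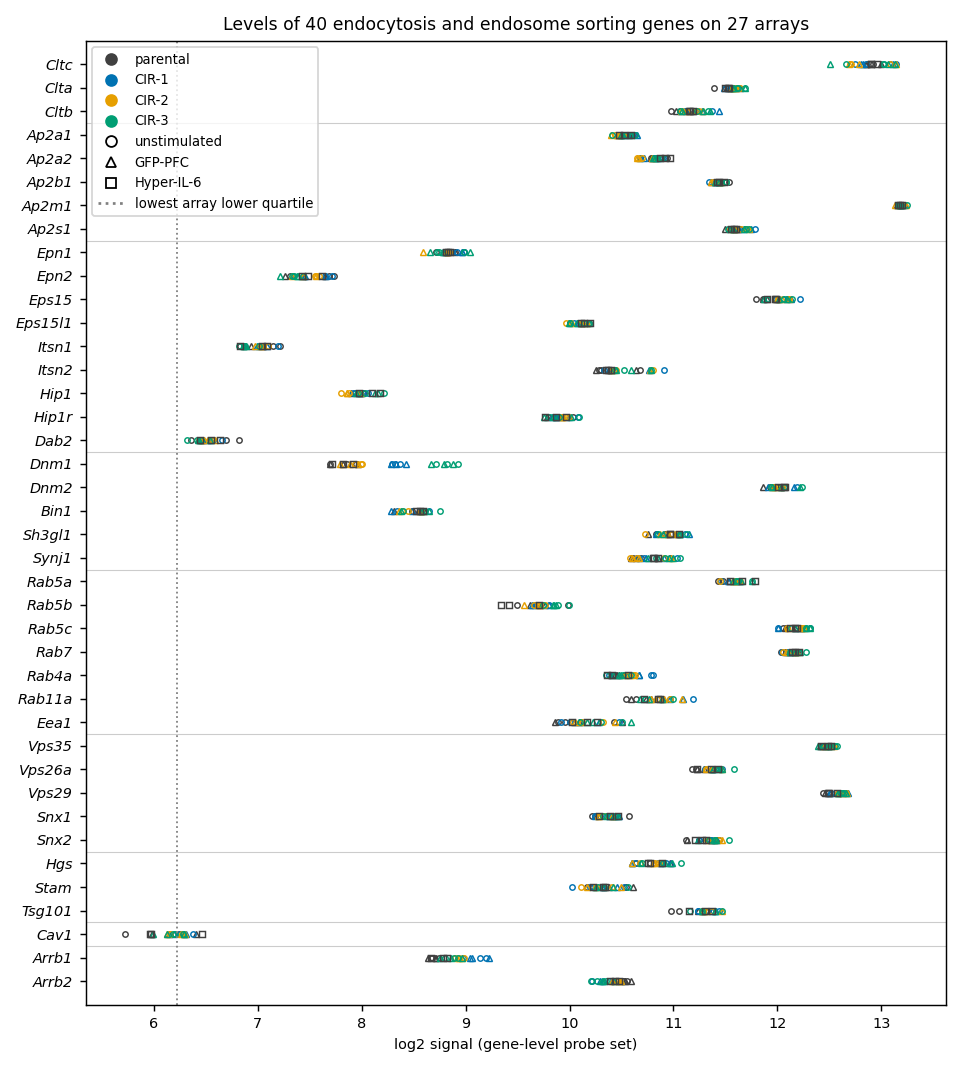
Log2 signal (x axis) of 40 endocytosis and endosome sorting genes (rows, grouped by role) on 27 arrays, coloured by line and shaped by stimulation, with the background bound of 6.218 dotted. Most genes form tight clusters, Dnm1 separates by line between 7.69 and 8.93, and Cav1 straddles the bound.

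The CIR lines differed from parental cells in 5 members. Dnm1, a GTPase that cuts vesicle necks and is best known from nerve cells, was higher in CIR-3 and CIR-1. Arrb1, beta-arrestin 1, was higher in all 3 CIR lines, and Arrb2, beta-arrestin 2, was lower in CIR-1 and CIR-3. Rab11a, a GTPase of recycling endosomes, was higher in CIR-1, and Vps26a, a retromer subunit, was higher in CIR-3. Each line was compared with parental cells over the unstimulated and GFP-PFC arrays together, 6 against 6, and the comparisons share the 6 parental arrays. Calls are those of a limma fit without a block for array numbers unless a block is named. At an adjusted p of 0.05 over all genes, 4 of 40 members passed in CIR-1, where 4.91% of all genes did. Of these members 3 were higher (2.95% of all genes) and 1 lower (1.96%). In CIR-2, 1 of 40 members passed and 3.80% of all genes, the member being higher (2.42% of all genes higher, 1.38% lower). In CIR-3, 4 of 40 passed and 4.20% of all genes, 3 of the members higher (3.10%) and 1 lower (1.10%). With 40 members, these counts lie close to the background shares. With array number as a block, in a fit described with the numbers, 7, 2 and 6 of 40 members passed, and 8.30%, 6.67% and 8.29% of all genes. The median differences over the members were 0.033, 0.027 and 0.083 in CIR-1, CIR-2 and CIR-3, against 0.001, -0.003 and -0.023 over all genes. The 2 sets differ in signal. The members had a median signal percentile of 81.0, while 3579 of all genes lay below the background bound. Whether this bears on the medians was not tested.

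**Figure D2:**
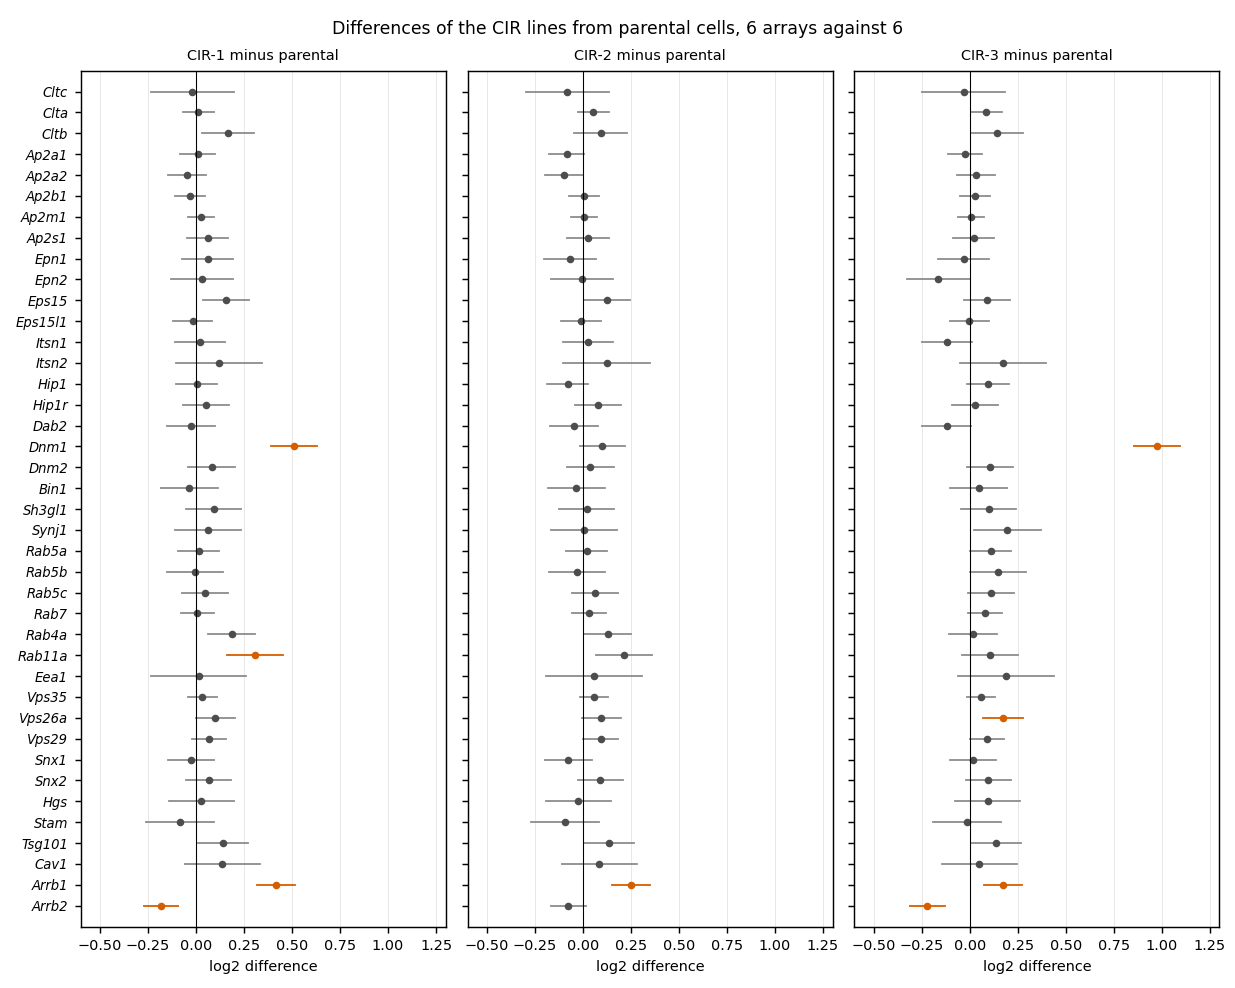
Log2 difference from parental cells (x axis) of each member (rows) in CIR-1, CIR-2 and CIR-3, with 95% intervals from the limma fit; members that passed the test are orange. Dnm1 in CIR-3 (0.97) and CIR-1 (0.51) and Arrb1 in CIR-1 (0.42) lie farthest from 0, and most other members lie within 0.25 of it.

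Dnm1 had the widest differences. In parental cells its signals were 7.69, 7.86 and 7.94 unstimulated, 7.69, 7.82 and 7.96 after GFP-PFC and 7.92, 7.71 and 7.82 after Hyper-IL-6. In CIR-1 they were 8.32, 8.37 and 8.29 unstimulated and 8.33, 8.43 and 8.28 after GFP-PFC. All 6 CIR-1 arrays lay above all parental ones. Arrays of a line and of parental cells, 6 against 6, did not overlap for 3 members in each CIR line, and for 3.78%, 3.79% and 3.36% of all genes in CIR-1, CIR-2 and CIR-3. In CIR-2 they were 7.93, 8.00 and 7.99 and 7.79, 7.96 and 7.89, which overlaps the parental range. In CIR-3 they were 8.82, 8.93 and 8.71 and 8.67, 8.88 and 8.79, above every array of the other lines. The difference from parental cells was 0.97 in CIR-3 (SE 0.057, adjusted p = 1.48e-11, a 1.97-fold higher signal), 0.51 in CIR-1 (SE 0.057, adjusted p = 1.43e-06) and 0.10 in CIR-2 (95% interval -0.016 to 0.220, adjusted p = 0.535).

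The CIR lines were also compared with each other. Dnm1 was lower in CIR-2 than in CIR-1 by a difference of -0.41 (SE 0.057, adjusted p = 0.00011), the only member to pass where 1.45% of all genes did. It was higher in CIR-3 than in CIR-1 by 0.46 (adjusted p = 7.64e-06) and higher in CIR-3 than in CIR-2 by 0.87 (adjusted p = 1.48e-10). In CIR-3 against CIR-1, 2 members passed and 2.80% of all genes. In CIR-3 against CIR-2, Dnm1 alone passed and 2.33% of all genes. The order of the lines was therefore CIR-3, CIR-1 and then CIR-2 with parental cells, whose arrays overlapped. Within array numbers 1 and 2, 3 and 4, and 5 and 6, the CIR-3 difference from parental cells was 1.06, 1.07 and 0.80, and the CIR-1 difference was 0.64, 0.56 and 0.34. Exon-level probe sets of the same arrays showed an uneven picture along the gene. In CIR-3, 19 of 26 Dnm1 probe sets were higher and 7 lower than in parental cells, with a median of 1.04 and a range of -0.46 to 2.33. With the median of a gene's exon probe sets as its value, the difference between CIR-3 and CIR-1 no longer passed (adjusted p = 0.0867), while that of CIR-2 from CIR-1 was -0.722. The call of CIR-2 against CIR-1 was lost in unstimulated arrays alone (adjusted p = 0.0547).

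Dnm2, the dynamin found in most tissues, showed no such pattern. Its signals in parental cells were 11.93, 11.99 and 12.03 unstimulated, 11.86, 11.97 and 12.03 after GFP-PFC and 12.07, 12.06 and 12.01 after Hyper-IL-6. They were 11.96, 12.04 and 12.19 and 11.91, 12.03 and 12.16 in CIR-1, and 11.97, 12.04 and 12.07 and 11.95, 11.98 and 12.03 in CIR-2, unstimulated first. CIR-3 arrays gave 11.94, 12.06 and 12.24 and 11.95, 12.03 and 12.22. All groups overlapped, and in each CIR line the lowest unstimulated value belonged to array number 1. The difference from parental cells was 0.11 in CIR-3 (95% interval -0.014 to 0.227, adjusted p = 0.373) and 0.08 in CIR-1 (-0.039 to 0.201, adjusted p = 0.676). The CIR-3 difference passed (adjusted p = 0.0471) in a fit of the 24 unstimulated and GFP-PFC arrays with array number as a block. The other shaping and uncoating factors, namely the amphiphysin Bin1, the endophilin Sh3gl1 and the lipid phosphatase Synj1, did not pass in any line comparison without a block. Synj1 had the largest of their differences, 0.20 in CIR-3 (adjusted p = 0.237, and 0.0115 with the block of 27 arrays). Without all arrays numbered 1 and 2, it passed there with no block (0.23, adjusted p = 0.00709).

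The beta-arrestins moved in opposite directions in CIR-1 and CIR-3. Arrb1 signals in parental cells were 8.68, 8.67 and 8.74 unstimulated, 8.71, 8.64 and 8.70 after GFP-PFC and 8.67, 8.78 and 8.82 after Hyper-IL-6. In CIR-1 they were 9.20, 9.14 and 8.97 and 9.06, 9.22 and 9.04, unstimulated first. In CIR-2 they were 8.98, 8.94 and 8.90 and 8.96, 8.94 and 8.92. The CIR-3 values were 8.89, 8.93 and 8.80 and 8.96, 8.86 and 8.75. The unstimulated and GFP-PFC arrays of all 3 CIR lines lay above those of parental cells, and those of CIR-3 lay below those of CIR-1. CIR-1 exceeded parental cells by 0.42 (SE 0.048, adjusted p = 2.05e-06), CIR-2 by 0.25 (adjusted p = 0.0017) and CIR-3 by 0.17 (adjusted p = 0.036), with the same SE. CIR-3 lay below CIR-1 by a difference of -0.24 (adjusted p = 0.00294). Together with Dnm1, Arrb1 passed the F-test of differences among the 3 CIR lines (adjusted p = 0.00665, against 5.95e-10 for Dnm1), as did 3.71% of all genes. The Arrb1 call in CIR-3 was lost without any of 8 arrays, namely parental GFP-PFC 2, 4 or 6, parental unstimulated 3, CIR-3 unstimulated 1 or 3, and CIR-3 GFP-PFC 2 or 4, with adjusted p values of up to 0.11. It was also lost without all arrays numbered 1 and 2 (0.148, adjusted p = 0.0631), with the compared arrays alone, with an intensity trend and in either condition alone, while the exon-level table gave a difference of 0.402. The CIR-2 difference was 0.410 in that table, and its call was lost in either condition alone (adjusted p = 0.0828 and 0.0674). The call of CIR-3 against CIR-1 was lost with the compared arrays alone, in the exon-level table and in either condition alone. Within numbers 5 and 6 the difference of CIR-3 from parental cells was 0.05, against 0.23 and 0.24 in the other number pairs.

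Arrb2 signals in parental cells were 10.55, 10.51 and 10.51 unstimulated, 10.53, 10.53 and 10.59 after GFP-PFC and 10.48, 10.39 and 10.44 after Hyper-IL-6. In CIR-1 they were 10.42, 10.22 and 10.38 and 10.32, 10.29 and 10.49, and in CIR-2 10.45, 10.46 and 10.47 and 10.41, 10.48 and 10.49. In CIR-3 cells the signals were 10.26, 10.21 and 10.35 and 10.33, 10.31 and 10.43. Without stimulation and after GFP-PFC, all arrays of each CIR line lay below the parental ones. The difference was -0.22 in CIR-3 (SE 0.044, adjusted p = 0.00262), -0.18 in CIR-1 (SE 0.044, adjusted p = 0.012) and -0.08 in CIR-2 (SE 0.044, adjusted p = 0.565). The CIR-1 call was lost in 5 of 12 other settings, namely without all arrays numbered 1 and 2 (adjusted p = 0.0547), with the compared arrays alone (0.122), in the exon-level table (0.212), and in unstimulated (0.221) or GFP-PFC arrays alone (0.204). The CIR-3 call was lost in GFP-PFC arrays alone (0.209). In the exon-level values, 16 of 17 Arrb2 probe sets were lower in each CIR line. All 18 Arrb1 probe sets were higher in CIR-1 and CIR-2, while in CIR-3 13 were higher and 5 lower.

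**Figure D3:**
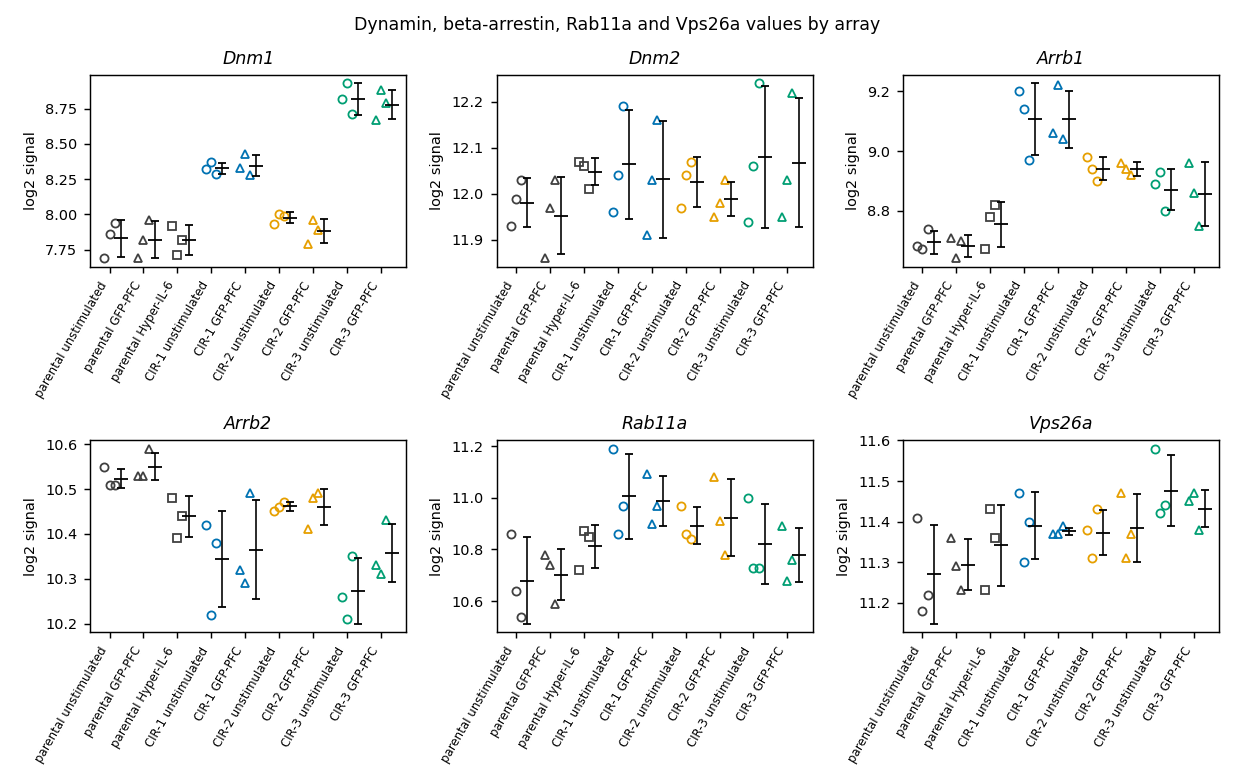
Log2 signal (y axes, not starting at 0) of Dnm1, Dnm2, Arrb1, Arrb2, Rab11a and Vps26a on each array, by line and stimulation (x axes), with the mean and SD of 3 arrays beside each group. Dnm1 rises in steps from parental to CIR-1 to CIR-3, while Dnm2, Rab11a and Vps26a overlap between lines.

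Among the Rab GTPases, Rab11a passed in 1 comparison. Its signals were 10.86, 10.64 and 10.54 in unstimulated parental cells, 10.78, 10.74 and 10.59 after GFP-PFC and 10.72, 10.87 and 10.85 after Hyper-IL-6. They were 11.19, 10.86 and 10.97 and 11.09, 10.90 and 10.97 in CIR-1. In CIR-2 they were 10.97, 10.86 and 10.84 and 11.08, 10.91 and 10.78, and in CIR-3 11.00, 10.73 and 10.73 and 10.89, 10.68 and 10.76. The value of array number 1 was the highest of its 3 in every unstimulated group. Unstimulated CIR-1 and parental arrays met at 10.86, while after GFP-PFC all CIR-1 arrays lay above the parental ones. Rab11a was higher than in parental cells by 0.30 in CIR-1 (SE 0.070, adjusted p = 0.00851), with differences of 0.22 in CIR-2 (adjusted p = 0.107) and 0.11 in CIR-3 (adjusted p = 0.468). Within numbers 1 and 2, 3 and 4, and 5 and 6, the CIR-1 difference was 0.32, 0.19 and 0.41. The call was lost in the exon-level table (adjusted p = 0.143) and in unstimulated (0.122) or GFP-PFC arrays alone (0.251), and with the block of 27 arrays the CIR-2 difference passed (0.0107).

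Rab5a, which controls fusion with the early endosome, had no line difference that passed. Its signals in parental cells were 11.62, 11.48 and 11.43 unstimulated, 11.64, 11.59 and 11.53 after GFP-PFC and 11.54, 11.78 and 11.66 after Hyper-IL-6. They were 11.60, 11.46 and 11.59 and 11.63, 11.52 and 11.60 in CIR-1, and 11.64, 11.45 and 11.58 and 11.57, 11.61 and 11.58 in CIR-2. In CIR-3 they were 11.76, 11.62 and 11.60 and 11.76, 11.65 and 11.57. All groups overlapped, and its largest line difference was 0.11 in CIR-3 (95% interval 0.004 to 0.217, adjusted p = 0.285). Rab5b, Rab5c, the late endosome GTPase Rab7, the fast-recycling GTPase Rab4a and the Rab5 effector Eea1 did not pass in any line comparison without a block. With it, Rab4a passed in CIR-1 (0.19, adjusted p = 0.0371). Without all arrays numbered 1 and 2 and with no block, Rab5b (0.19), Rab5c (0.12) and Eea1 (0.25) passed in CIR-3. All 7 members of this group had positive differences in CIR-3, with a median of 0.110.

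Of the retromer and sorting nexin genes, Vps26a passed in CIR-3. Its signals were 11.41, 11.18 and 11.22 in unstimulated parental cells, 11.36, 11.29 and 11.23 after GFP-PFC and 11.23, 11.43 and 11.36 after Hyper-IL-6. They were 11.47, 11.30 and 11.40 and 11.37, 11.37 and 11.39 in CIR-1, and 11.38, 11.31 and 11.43 and 11.47, 11.31 and 11.37 in CIR-2. CIR-3 arrays gave 11.58, 11.42 and 11.44 and 11.45, 11.47 and 11.38. Among the unstimulated and GFP-PFC arrays of parental cells, the one that reached into the CIR-3 range was unstimulated number 1. The difference in CIR-3 was 0.17 (SE 0.050, adjusted p = 0.0487), just inside the threshold, and it passed in 6 of the 27 fits that each left out 1 array. Those were the fits without parental unstimulated 1, parental GFP-PFC 2, Hyper-IL-6 2, CIR-1 unstimulated 1, CIR-1 unstimulated 3 and CIR-2 GFP-PFC 2. In the others the adjusted p rose to at most 0.148. The call was also lost with the compared arrays alone (0.169), after quantile normalization (0.0646) and in either condition alone (0.189 and 0.687).

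Vps35, the retromer subunit that holds the cargo-binding trimer together, was nearly constant. Its signals in parental cells were 12.45, 12.44 and 12.42 unstimulated, 12.41, 12.46 and 12.43 after GFP-PFC and 12.42, 12.52 and 12.49 after Hyper-IL-6. They were 12.46, 12.45 and 12.49 and 12.47, 12.46 and 12.50 in CIR-1, and 12.48, 12.48 and 12.54 and 12.45, 12.49 and 12.54 in CIR-2. The CIR-3 values were 12.57, 12.55 and 12.45 and 12.49, 12.52 and 12.39. Its 27 values spanned 0.18, and its difference from parental cells was at most 0.06 (SE 0.036, in CIR-2). The third subunit Vps29 and the sorting nexins Snx1 and Snx2 did not pass. Without all arrays numbered 1 and 2, Vps29 passed in CIR-3 (0.12, adjusted p = 0.0315).

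The clathrin chains did not pass in any line without a block. Cltc, the clathrin heavy chain, had signals of 13.08, 12.92 and 12.89 in unstimulated parental cells, 13.00, 12.86 and 12.85 after GFP-PFC and 12.90, 12.90 and 12.96 after Hyper-IL-6. They were 13.14, 12.75 and 12.85 and 13.11, 12.82 and 12.80 in CIR-1, and 13.08, 12.71 and 12.70 and 13.14, 12.69 and 12.79 in CIR-2. In CIR-3 cells the signals were 13.03, 12.66 and 13.02 and 13.06, 12.51 and 13.13. Arrays 1 and 2 were the highest of their groups among unstimulated and GFP-PFC arrays, except after GFP-PFC in CIR-3, where array 6 was higher. The CIR-3 GFP-PFC array numbered 4 was the lowest of the 27. Its line differences ran from -0.08 to -0.02 (SE 0.105). The light chains Clta and Cltb did not pass either, Cltb having a difference of 0.17 in CIR-1 (adjusted p = 0.214) and 0.14 in CIR-3 (adjusted p = 0.282). Both Cltb differences passed with the block of 27 arrays (0.0174 and 0.0454). They also passed with no block but without all arrays numbered 1 and 2 (0.0369 and 0.0332).

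Ap2m1, the AP-2 subunit that binds tyrosine-based sorting signals, was the steadiest of the members shown. Its signals in parental cells were 13.20, 13.16 and 13.19 unstimulated, 13.19, 13.15 and 13.19 after GFP-PFC and 13.20, 13.16 and 13.18 after Hyper-IL-6. They were 13.19, 13.21 and 13.19 and 13.23, 13.20 and 13.21 in CIR-1, and 13.17, 13.21 and 13.21 and 13.13, 13.18 and 13.24 in CIR-2. In CIR-3 they were 13.16, 13.16 and 13.25 and 13.18, 13.19 and 13.16. Its 27 values spanned 0.13, and the 95% interval of its CIR-3 difference was -0.063 to 0.073. The AP-2 subunits Ap2a1, Ap2a2, Ap2b1 and Ap2s1 did not pass in any line comparison, with or without the block of 27 arrays. Without all arrays numbered 1 and 2, Ap2a2 passed in CIR-3 against CIR-2 (0.20, adjusted p = 0.0131).

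None of the 9 coat accessory and cargo adaptor genes passed in a line comparison without a block. They were the epsins Epn1 and Epn2, the scaffolds Eps15, Eps15l1, Itsn1 and Itsn2, the actin linkers Hip1 and Hip1r, and the lipoprotein receptor adaptor Dab2. Eps15 came nearest in CIR-1, with a difference of 0.16 (SE 0.058, adjusted p = 0.162), and passed there with the block of 27 arrays (0.0333). Hip1 passed in CIR-3 against CIR-2 with it (0.18, adjusted p = 0.023). Without all arrays numbered 1 and 2 and with no block, Eps15 passed in CIR-1 (0.19, adjusted p = 0.0339). In CIR-3, Epn2 (-0.24), Itsn1 (-0.18), Itsn2 (0.20), Hip1 (0.17) and Dab2 (-0.20) then passed, where 20.9% of all genes did. The Dab2 probe set used had a mean of 6.51, near the background bound, and a second one lay below it (4.64). With all arrays they differed from parental cells by -0.12 and -0.08 in CIR-3, and by -0.05 and 0.07 in CIR-2. The ESCRT genes Hgs, Stam and Tsg101 did not pass without a block. Without all arrays numbered 1 and 2, Tsg101 passed in CIR-1 (0.16) and CIR-3 (0.14). Tsg101 had a second probe set, and the probe set used gave differences of 0.14, 0.14 and 0.14 in CIR-1, CIR-2 and CIR-3, where the other gave 0.03, 0.01 and 0.06. The annotation also lists a Tsg101 pseudogene on chromosome 15, so which copy these probe sets report is uncertain.

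Cav1 signals were 5.72, 6.24 and 6.28 in unstimulated parental cells, 5.98, 6.40 and 6.14 after GFP-PFC and 6.46, 5.96 and 5.97 after Hyper-IL-6. They were 6.25, 6.15 and 6.38 and 6.31, 6.19 and 6.29 in CIR-1, and 6.15, 6.15 and 6.27 and 6.13, 6.30 and 6.26 in CIR-2. CIR-3 arrays gave 6.28, 6.20 and 6.18 and 6.29, 6.13 and 5.99. These values lay around the background bound in every group, and no difference passed.

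Numbers in the labels divided the arrays more than the stimulation did. Across the 24 unstimulated and GFP-PFC arrays, deviations from the group means, taken over all genes, were positively correlated for every pair of arrays with the same number and for every consecutive pair of the same line. Entered as a block of 3 levels (1 and 2, 3 and 4, 5 and 6) in a fit of these 24 arrays, the number was called for 22 of 40 members and for 39.1% of all genes. For the member with the largest deviation, Eea1, arrays 1 and 2 lay 0.256 above their group means on average and arrays 5 and 6 deviated by -0.181. Itsn2 deviated by 0.241 in arrays 1 and 2, Cltc by 0.180 and Stam by 0.175. The ESCRT-0 gene Hgs deviated the other way, by -0.169 in arrays 1 and 2 and by 0.127 in arrays 5 and 6. Of the 22 members, 13 were higher and 9 lower in arrays 1 and 2. As a description, the variance was split among number (3 levels), line (4 levels), stimulation (2 levels) and a rest. Leaving the rest aside, the number held the largest share in 23 members, the line in 17 and the stimulation in none. The rest was the largest of all in some members, such as Cav1 (79.9%) and Ap2m1 (73.0%). Median shares of number, line, stimulation and rest were 33.3%, 25.6%, 0.7% and 30.2% for the members. They were 19.4%, 15.8%, 1.9% and 50.1% for all genes. The number accounted for 82.7% of the variance of Hgs and 82.0% of that of Itsn2, and the line for 95.6% of that of Dnm1 and 85.8% of that of Arrb1. What the numbers stand for was not given in the labels.

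**Figure D4:**
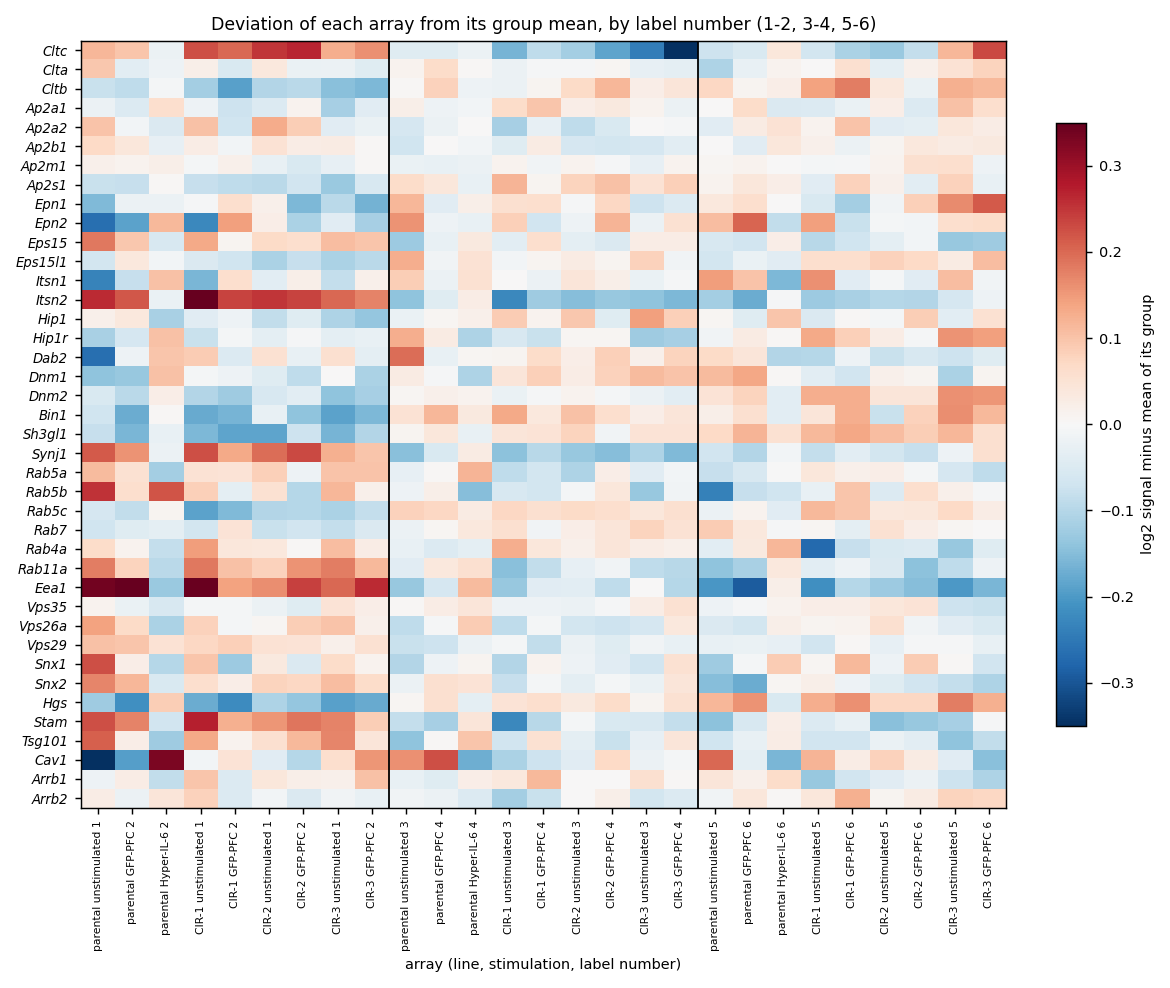
Deviation of each array (columns, ordered by label number 1 and 2, 3 and 4, 5 and 6) from the mean of its group, on the log2 scale (colour), for each member (rows). Arrays 1 and 2 are red for Eea1, Itsn2, Cltc and Stam and blue for Hgs, except the Hyper-IL-6 array numbered 2.

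With the number as a block, more members passed in the line comparisons, and so did more of all genes. In the fit of all 27 arrays, 7 of 40 members passed in CIR-1 (8.30% of all genes), 2 in CIR-2 (6.67%) and 6 in CIR-3 (8.29%). In the fit of the 24 arrays, which was added after seeing the data, CIR-1 had 8 (10.6%), CIR-2 had 2 (8.76%) and CIR-3 had 10 (11.6%). Both blocked fits added Rab11a in CIR-2, Cltb, Eps15 and Rab4a in CIR-1, and Cltb and Synj1 in CIR-3. Between the CIR lines, the blocked fit of 27 arrays called Dnm1 and Arrb1 in CIR-2 against CIR-1 (2.77% of all genes), and Dnm1, Arrb1 and Rab11a in CIR-3 against CIR-1 (5.13%). In CIR-3 against CIR-2 it called Dnm1, Hip1, Synj1 and Arrb2 (5.20%), and its F-test among the 3 lines called Dnm1, Arrb1, Arrb2, Hip1 and Synj1 (7.33%). The 24-array fit further called Tsg101 in CIR-1 (0.14, adjusted p = 0.0461) and, in CIR-3, Itsn2 (0.17), Eea1 (0.19), Rab5c (0.11) and Dnm2 (0.11). Between the CIR lines it called 2 members in CIR-2 against CIR-1 (3.58% of all genes), 6 in CIR-3 against CIR-1 (7.00%), 5 in CIR-3 against CIR-2 (7.82%) and 7 in the F-test (10.6%). The differences themselves were the same as without the block. Without the unstimulated parental array numbered 1, the unblocked fit called 9 members in CIR-3 in place of 4, where 10.1% of all genes passed. They were Epn2, Itsn1, Dab2, Dnm1, Rab5b, Vps26a, Tsg101, Arrb1 and Arrb2. Without all arrays numbered 1 and 2 it called 15, where 20.9% of all genes passed. These were Cltb, Epn2, Itsn1, Itsn2, Hip1, Dab2, Dnm1, Synj1, Rab5b, Rab5c, Eea1, Vps26a, Vps29, Tsg101 and Arrb2. That fit further called Cltb, Eps15 and Tsg101 in CIR-1, and Rab11a in CIR-2.

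Markers of other blood cell types also differed between the lines. Of 4 erythroid markers, Gata1, Klf1 and Epor were higher than in parental cells in CIR-1 and CIR-2, and Epor in CIR-3. The log2 of their summed signal was 11.36 to 11.54 on unstimulated and GFP-PFC parental arrays, 11.81 to 11.96 in CIR-1, 11.67 to 11.80 in CIR-2 and 11.51 to 11.66 in CIR-3. Of 8 neutrophil and macrophage markers, the granule enzyme Mpo differed by -1.55, -1.54 and 0.98 in CIR-1, CIR-2 and CIR-3, and the lysozyme gene Lyz2 by -0.25 in CIR-1 and -0.91 in CIR-3. That list summed to 11.00 to 11.51 in parental cells, 10.42 to 10.56 in CIR-1, 10.36 to 10.57 in CIR-2 and 11.75 to 11.91 in CIR-3. Its markers Ly6g and Adgre1 were not shown to lie above background. Of 8 mast cell and basophil markers, 3, 2 and 2 passed in CIR-1, CIR-2 and CIR-3. They went in both directions in CIR-1 and CIR-3, and were lower in CIR-2. The IgE receptor chain Fcer1a was at least 8.1-fold lower in each CIR line, its mean of 9.23 in parental cells being set against the bound of 6.218, below which all CIR arrays lay. The histamine-forming enzyme Hdc differed by -0.77 in CIR-1 and -0.86 in CIR-2, the protease Prss34 by 0.40 in CIR-1 and the IgE receptor chain Ms4a2 by 0.59 in CIR-3. Ms4a2 was also higher after GFP-PFC over the 4 lines (0.57, adjusted p = 0.0149). Cpa3 was not shown to lie above background, and the list summed to 10.22 to 11.12 in parental cells against 9.90 to 10.50 in the CIR lines. Of 14 pro-B cell markers, Cd79b was higher in the 3 lines (0.26, 0.20 and 0.17) and Cd79a in CIR-3 (0.35), and the list summed to 12.95 to 13.05 in parental cells and 12.91 to 13.23 in the CIR lines. Against parental cells, 0 of 6 T cell and 0 of 7 fibroblast and endothelial markers passed. The part of these genes in the member differences was not tested.

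After 1 h of GFP-PFC, no member passed. Over the mean of the 4 lines, 12 arrays against 12, 0 of 40 members and 0.221% of all genes passed. No member had an unadjusted p under 0.05, while 6.31% of all genes did. The differences ran from -0.09 for Epn2 (SE 0.055) to 0.08 for Tsg101 (SE 0.045), and the 95% intervals of all 40 members lay within 0.25 of 0. The smallest adjusted p was 0.914. In the single lines, 3 arrays against 3, 0 members and 0.00% of all genes passed in each. Again no member had an unadjusted p under 0.05. Of all genes, 3.92%, 2.45%, 1.33% and 2.14% did in parental cells, CIR-1, CIR-2 and CIR-3. The F-test of whether the response differed among the 4 lines called 0 members and 0.00% of all genes. In the single lines, the 95% intervals of all 40 members lay within 0.5 of 0, those of 27 to 30 of them within 0.25. Dnm1 differed by -0.04 after GFP-PFC in CIR-3 (95% interval -0.207 to 0.128), and Arrb1 by -0.01 in parental cells. Other settings of the limma fit called 1 member without arrays 1 and 2 (Tsg101, 0.12, adjusted p = 0.0452, where 4.74% of all genes passed) and Epn2 and Tsg101 with array weights (5.38% of all genes). The second Tsg101 probe set was not followed singly after GFP-PFC. With the number as a block, 0 members passed over the 4 lines in the fit of 27 arrays (0.758% of all genes) and in that of 24 (1.32%).

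**Figure D5:**
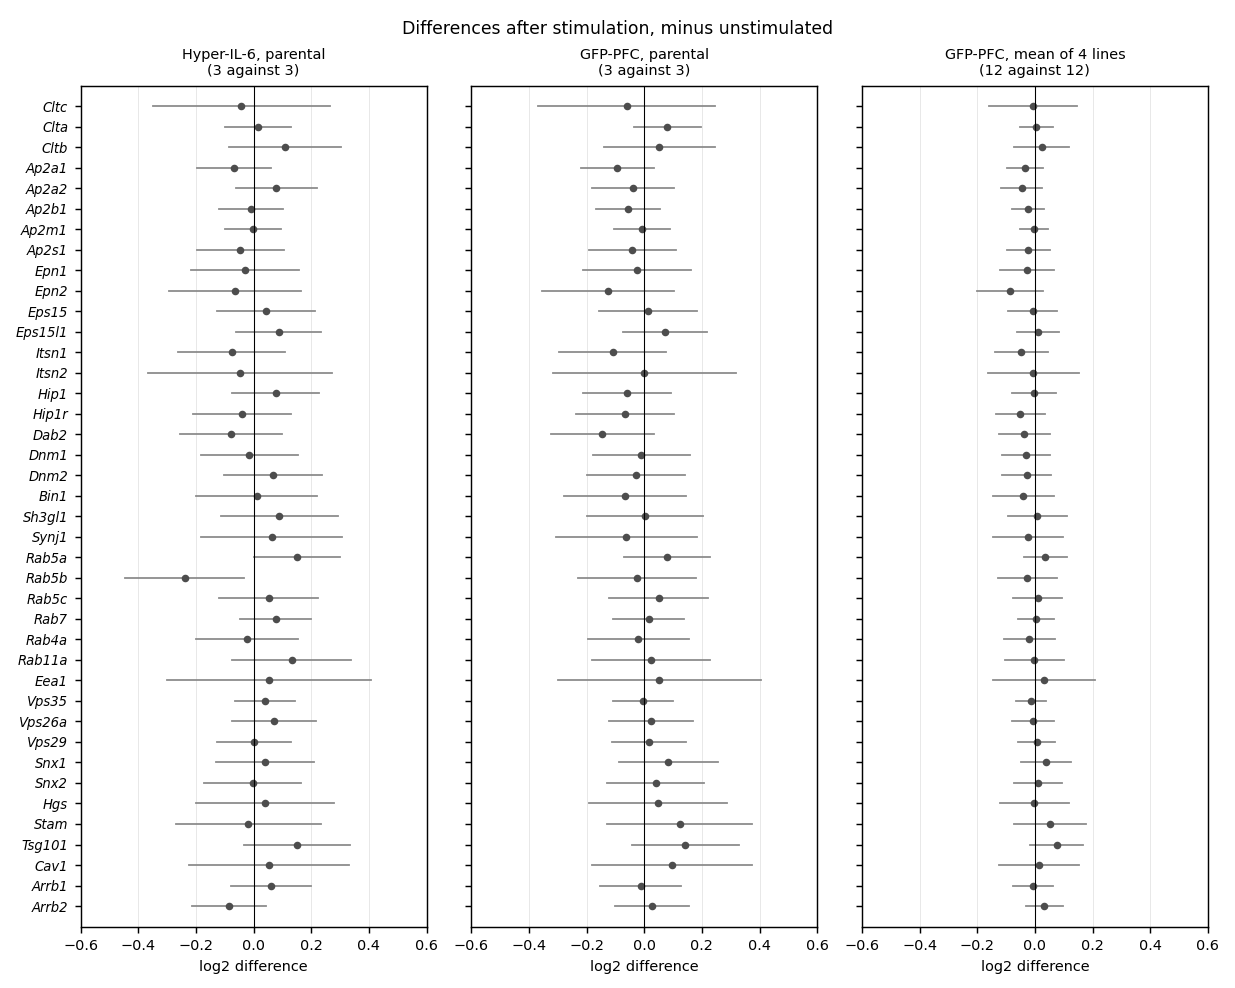
Log2 difference from unstimulated cells (x axis) of each member (rows) after Hyper-IL-6 and after GFP-PFC in parental cells, and after GFP-PFC as the mean of 4 lines, with 95% intervals. The means of 4 lines all lie within 0.1 of 0, and Rab5b (-0.24) and Rab5a (0.15) lie farthest from 0 after Hyper-IL-6.

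After 1 h of Hyper-IL-6 in parental cells, 0 of 40 members passed, where 0.773% of all genes did. An unadjusted p under 0.05 was found for 2 of 40 members and for 6.66% of all genes. Rab5b had a difference of -0.24 (SE 0.099, adjusted p = 0.616), and Rab5a one of 0.15 (SE 0.073, adjusted p = 0.749). Rab5b had a second probe set of nearly the same mean (9.68, against 9.71), which was not followed singly after Hyper-IL-6. All 40 intervals lay within 0.5 of 0. This count depended on the arrays numbered 1 and 2. Without them, the limma fit called 10 members, where 18.4% of all genes passed. Of these, Tsg101 (0.32, adjusted p = 0.00675), Eea1 (0.29), Rab5a (0.27), Rab11a (0.27), Snx1 (0.20) and Vps26a (0.19) were higher, and Cav1 (-0.29), Epn2 (-0.26), Dab2 (-0.26) and Itsn1 (-0.24) were lower. The Cav1 probe set, which lies around the background bound, differed by 0.05 with all arrays. Tsg101 and Dab2 each had a second probe set too, which was not followed singly after Hyper-IL-6. With array weights 6 members passed (17.4% of all genes), and with the number as a block 0 did (1.63% of all genes). The Hyper-IL-6 arrays did not deviate with their numbers as the others did. Correlations of their deviations with those of same-numbered GFP-PFC arrays ran from -0.299 to 0.060, and with unstimulated parental arrays of consecutive number from -0.463 to -0.201. For Itsn2, the Hyper-IL-6 values were 10.35, 10.40 and 10.37 and the unstimulated parental ones 10.68, 10.28 and 10.30. Whether the Hyper-IL-6 arrays were handled together with the unstimulated ones is not given in the labels, so handling and treatment cannot be told apart in this comparison.

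Of 150 further genes of the pathway, taken from lists of roles, without a block 14 differed from parental cells in CIR-1 (4.91% of all genes). The count was 6 for CIR-2 (3.80%) and 17 for CIR-3 (4.20%), with 1 after Hyper-IL-6 (0.773%) and none after GFP-PFC (0.221% over the 4 lines). With the block of 27 arrays, 20, 12 and 30 passed in the lines (8.30%, 6.67% and 8.29% of all genes). After GFP-PFC over the 4 lines, 2 then did, where 0.758% of all genes passed. They were the early endosome GTPase Rab21 (0.13, adjusted p = 0.0442) and Rabgef1 (0.21, adjusted p = 0.035). After Hyper-IL-6, 5 did with that block (1.63% of all genes), Bmp2k, Ap1s2, Ehd2 and Ehd4 being higher and Vps37b lower. Values and counts that follow are without a block. Of all genes, 2.95%, 2.42% and 3.10% were then higher in CIR-1, CIR-2 and CIR-3, and 1.96%, 1.38% and 1.10% lower. Ap1m2, an AP-1 adaptor subunit best known from epithelia, was higher by 1.06, 1.00 and 1.20 in CIR-1, CIR-2 and CIR-3 (SE 0.074 each, adjusted p = 5.42e-10, 1.56e-09 and 3.8e-11). Of 18 AP-1, AP-3 and GGA adaptor genes, 3, 1 and 2 were higher in the respective lines, the AP-3 subunit Ap3m1 by 0.17 in CIR-1 and 0.19 in CIR-3. Bmp2k, a kinase related to the AP-2 kinase Aak1, was higher by 0.99, 0.84 and 0.44 in CIR-1, CIR-2 and CIR-3 (SE 0.064) and by 0.455 after Hyper-IL-6 (SE 0.091, adjusted p = 0.0102). Of 18 other coat regulators, 3 were higher and 1 lower in CIR-1, 2 and 1 in CIR-2, and 3 and 1 in CIR-3. The lower one was in each line Dnajc6, the auxilin that helps to uncoat vesicles, with differences of -0.33, -0.385 and -0.41. Necap2, which binds AP-2, was higher by 0.28, 0.22 and 0.22, and Numb, an adaptor of Notch and integrin traffic, by 0.31 in CIR-3.

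Among 28 other endosomal Rabs and effectors, CIR-1 had 3, CIR-2 had 2 and CIR-3 had 6 that were higher than in parental cells, and 0 were lower. Rabgef1, an exchange factor for Rab5, was higher by 0.56, 0.425 and 0.52 in CIR-1, CIR-2 and CIR-3 (SE 0.074), and the Rab11 effector Rab11fip5 by 0.36, 0.42 and 0.39 (SE 0.077). Of 25 other retromer, WASH, CORVET and HOPS genes, the lipid phosphatase Fig4 (-0.28) and Vps8 (-0.23) were lower in CIR-1, and none passed in CIR-2 or CIR-3. Of 25 other ESCRT genes, 2 were higher in CIR-1 and 2 in CIR-3, Vps37b in both (0.29 and 0.24). Of 24 BAR domain, phosphoinositide and actin factors, Ocrl, an inositol phosphatase, was lower in CIR-3 (-0.29, adjusted p = 0.00182) and Trip10 higher (0.19). Of 7 caveolae genes, Ehd2 was higher in CIR-1 (0.73, SE 0.214, adjusted p = 0.0497) and is counted among the Rab effectors too, and of 7 arrestin family genes, Arrdc3 was lower in CIR-3 (-0.40, adjusted p = 0.0161).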

How the data were processed

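The Ambion WT Expression kit served to amplify the RNA, and the authors made gene-level and exon-level values with Affymetrix Expression Console, per the labels. The deposited values were read as log2 signals from their range of 2.97 to 14.9. Algorithm, normalization and build are not given in the sources used here. Of 35556 gene-level probe sets, 21789 had 1 gene symbol, 1621 several and 12146 none. Taking 1 probe set per gene left 19920 genes, and none was removed as dim.

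A linear model with 9 group means was fitted to 27 arrays with limma 3.58.1 (R 4.3.3), using two-sided moderated tests and Benjamini-Hochberg adjustment over all genes at 0.05. Intervals are 95% intervals of that fit. The members, gene lists and marker lists were chosen with earlier results of these data known. By a written rule, every member that passed is named with its array values, as are Cltc, Ap2m1, Dnm2, Rab5a, Vps35, Cav1 and Arrb2, and each further list may name up to 4 passing genes per comparison. Itsn2 was shown after its values were seen.

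Label numbers were checked as a pairing. Deviations from the group means, correlated over all genes, gave r of 0.136 to 0.763 for same-numbered unstimulated arrays, 0.211 to 0.615 for same-numbered GFP-PFC arrays and 0.283 to 0.633 for consecutive numbers of a line. The numbers were taken to pair these 24 arrays. As the labels state no pairing, calls come from the fit without a block, and blocked values stand beside them where they change a call or move a count. Alternatives were this block, other choices of arrays, array weights, other normalization and filters, and the exon-level table. The fit was tested on simulated data with independent noise and no effect of array number. Of 100 genes changed by 0.5 in CIR-1, 96 were called, and of 100 changed by 1, 100 were. Smaller differences were not simulated. The number of arrays limits the precision.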

Additional observations from a re-analysis of the deposited data

How the results depend on the processing

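Dnm1 in CIR-1 and CIR-3 against parental cells and Arrb1 in CIR-1 passed in all 12 other settings and all 27 fits that each left out 1 array. The 13 differences of members called without a block kept their sign in all of these, and signs of other members were not followed. Counts of members called moved by over 1.5 times as follows, each with the share of all genes called in the same fit. The cause of these moves was not tested. With the replicate block, CIR-1 against parental cells gave 7 (8.30%), CIR-2 gave 2 (6.67%), CIR-2 against CIR-1 gave 2 (2.77%), CIR-3 against CIR-2 gave 4 (5.20%) and the F-test among the CIR lines gave 5 (7.33%). With the replicate block and without the Hyper-IL-6 arrays, an alternative chosen after seeing the data, the counts were 8 for CIR-1 (10.6%), 2 for CIR-2 (8.76%), 10 for CIR-3 (11.6%), 2 for CIR-2 against CIR-1 (3.58%), 6 for CIR-3 against CIR-1 (7.00%), 5 for CIR-3 against CIR-2 (7.82%) and 7 for the F-test (10.6%). Without the arrays numbered 1 and 2 they were 10 for Hyper-IL-6 (18.4%), 1 for GFP-PFC over 4 lines (4.74%), 2 for CIR-2 (5.63%), 15 for CIR-3 (20.9%), 4 for CIR-3 against CIR-1 (6.47%), 4 for CIR-3 against CIR-2 (8.64%) and 5 for the F-test (8.86%). With array weights they were 6 for Hyper-IL-6 (17.4%), 2 for GFP-PFC over 4 lines (5.38%), 3 for GFP-PFC in parental cells (5.07%), 7 for CIR-1 (8.65%), 5 for CIR-2 (9.52%), 14 for CIR-3 (21.4%), 2 for CIR-2 against CIR-1 (3.52%), 4 for CIR-3 against CIR-1 (6.82%), 7 for CIR-3 against CIR-2 (10.9%) and 8 for the F-test (11.8%). Fitting the compared arrays alone gave 2 for CIR-3 (2.31%) and 1 for CIR-3 against CIR-1 (1.85%). The exon-level table gave 2 for CIR-1 (2.83%), 0 for CIR-3 against CIR-1 (1.88%) and 1 for the F-test (2.52%). Quantile normalization gave 2 for CIR-3 against CIR-2 (2.05%). Unstimulated arrays alone gave 2 for CIR-1 (1.73%), 0 for CIR-2 (1.20%), 2 for CIR-3 (1.49%), 0 for CIR-2 against CIR-1 (0.417%), 1 for CIR-3 against CIR-1 (1.18%) and 1 for the F-test (1.44%). GFP-PFC arrays alone gave 2 for CIR-1 (1.64%), 0 for CIR-2 (1.17%), 1 for CIR-3 (1.24%), 1 for CIR-3 against CIR-1 (1.04%) and 1 for the F-test (1.19%). Leaving out 1 array at a time gave 1 to 2 for CIR-2 (2 without parental unstimulated 1, 3.92%), 1 to 2 for CIR-2 against CIR-1 (2 without CIR-1 unstimulated 5, 1.33%) and 1 to 2 for CIR-3 against CIR-2 (2 without CIR-3 GFP-PFC 2, 2.17%). It gave 2 to 9 for CIR-3, with 9 without parental unstimulated 1 (10.1%) and 2 in each fit that left out 1 of parental unstimulated 3, parental GFP-PFC 4 and 6, CIR-3 unstimulated 1 and 3, and CIR-3 GFP-PFC 2 and 4 (3.29% to 3.66%). Averaging all probe sets of a gene, leaving out dim genes and an intensity trend moved no count by that much. A signal around the background bound, as for Cav1, limits what its differences can show.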
